A study of Mus musculus with 6 samples.

Results

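The microRNAs (miRNAs) miR-130a, miR-130b, miR-301a and miR-301b form a family whose 3p strands are known to share a seed. The 6 members described here, miR-130a-3p, miR-130b-3p, miR-130b-5p, miR-301a-3p, miR-301a-5p and miR-301b-3p, were chosen by name, and all 6 were found among the 1907 distinct miRNAs of the deposited table. Small RNA of the liver was sequenced in C57BL/6N mice aged 12 weeks. There were 3 females and 3 males, healthy littermates that ate a chow diet. No gene was altered and no agent was given in either group. The study concerns SAB, a mitochondrial protein, and liver injury that depends on sex, and these libraries come from uninjured liver. Library totals ranged from 3285249 to 16444675 counts, and the deepest library was male replicate 3. All 5 hepatocyte markers on the list used here, with miR-122-5p among them, had counts in every library.

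A miRNA precursor folds into a hairpin from which a 5p and a 3p strand are cut, and usually one of them is kept in the silencing complex. The kept strand finds messenger RNAs chiefly through its seed, bases 2 to 8, so miRNAs with the same seed share many targets. The miR-130 and miR-301 family is known for repressing PPAR gamma, a nuclear receptor that promotes fat storage.

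The mature sequences of 3 of the 3p strands, from RefSeq (GRCm38.p6), are shown first because the seed, in capitals, is what joins the family.

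miR-130a-3p: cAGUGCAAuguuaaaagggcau
miR-130b-3p: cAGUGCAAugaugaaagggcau
miR-301a-3p: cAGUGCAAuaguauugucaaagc

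Counted from 1 at the 5′ end, miR-130a-3p and miR-130b-3p were equal at 20 of 22 positions and differed by U11A and A13G. From the same end, miR-130a-3p and miR-301a-3p were equal over the first 9 bases and at 12 of the 22 positions compared. The 5p strands are shown with their own seeds in capitals, because the 2 that are members do not carry the seed of the 3p strands.

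miR-130a-5p: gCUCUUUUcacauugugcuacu
miR-130b-5p: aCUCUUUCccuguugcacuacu
miR-301a-5p: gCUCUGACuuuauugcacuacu
miR-301b-5p: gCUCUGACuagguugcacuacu

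The seeds of miR-301a-5p and miR-301b-5p were the same, and those of miR-130a-5p and miR-130b-5p differed from them and from each other. The complement of the 3p seed, UUGCACU, began at base 13 of miR-130b-5p, miR-301a-5p and miR-301b-5p, where the 2 strands of a hairpin face each other.

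The precursors lie at 3 places in the genome. Mir130a is on chromosome 2 (chr2:84741115-84741178, minus strand), where GENCODE M21 has no other gene on either strand. Mir301, the gene of miR-301a, is on chromosome 11 (chr11:87113004-87113089, plus strand) in an intron of Ska2. Mir130b (chr16:17124061-17124142) and Mir301b (chr16:17124400-17124496) are neighbours on the minus strand of chromosome 16. They are 257 bases apart and both within an intron of 2610318N02Rik. The hairpins are given with the 2 mature strands in capitals, to show the unequal strands whose counts follow.

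Mir130a: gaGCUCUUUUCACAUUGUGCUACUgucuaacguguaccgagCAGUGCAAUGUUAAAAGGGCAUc
Mir130b: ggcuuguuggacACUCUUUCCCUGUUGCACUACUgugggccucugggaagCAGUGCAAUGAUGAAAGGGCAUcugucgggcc
Mir301: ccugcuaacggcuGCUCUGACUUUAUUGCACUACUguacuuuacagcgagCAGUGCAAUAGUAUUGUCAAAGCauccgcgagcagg

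Matches to the 3p seed were looked for in the 3′ untranslated region of Pparg, the mouse gene of this receptor (longest annotated form, sense strand only, motif TTGCACT). It held 1 match, in capitals.

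Pparg: acaacgtgttccttctattgaTTGCACTa

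The whole printed stretch of Pparg, 29 bases, lies at chr6:115490216-115490244 on the plus strand. The untranslated region with the match has 204 bases, and 1.16% of 1379 genes with a region within 20% of that length held the motif. A match of letters is a description of the sequence and no measurement of repression, and the messenger RNAs were not analysed here.

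The family's counts in liver were almost wholly those of miR-130a-3p. Levels are given as counts scaled to a library of 1000000 (CPM) after adjustment of the library totals by TMM, a scaling factor that evens out differences in composition. The mature strands compared are 21 to 23 bases long, so no correction for length was made. In females miR-130a-3p stood at 759, 851 and 797 CPM, from 4595, 3074 and 2796 counts. In males it stood at 841, 535 and 795 CPM, from 5313, 2266 and 12522 counts. Male replicate 2 was the lowest of the 6 libraries, and the other 5 lay between 759 and 851 CPM. By its mean level miR-130a-3p ranked 57 of the 1907 miRNAs in the table, well above the median of 26.5 CPM over the 370 miRNAs that were tested.

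The next in level, miR-301a-3p, stood at 35.5, 49.0 and 47.3 CPM in females and at 49.4, 17.2 and 31.2 CPM in males. The highest and the lowest library were both male, so the groups overlapped. Its counts were 215, 177 and 166 in females and 312, 73 and 491 in males. With its mean of 38.3 CPM it ranked 167.

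The chromosome 16 strands were much rarer. The level of miR-130b-3p was 2.97, 4.98 and 4.28 CPM in females (18, 18 and 15 counts) and 6.96, 3.78 and 6.10 CPM in males (44, 16 and 96 counts). Its neighbour miR-301b-3p stood at 2.81, 4.70 and 4.56 CPM in females (17, 17 and 16 counts) and at 3.48, 2.83 and 1.33 CPM in males (22, 12 and 21 counts). The first was highest in male replicate 1 and the second lowest in male replicate 3, and for each the female and male ranges overlapped.

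The members with 5p strands were close to the limit of counting. For miR-301a-5p there were 11, 5 and 8 counts in females and 6, 6 and 38 in males, which is 0.949 to 2.41 CPM. For miR-130b-5p there were 2, 4 and 1 counts in females and 5, 2 and 5 in males, which is 0.285 to 1.11 CPM. Of the strands that are no members, miR-130a-5p ranged from 1.43 to 3.04 CPM, and miR-301b-5p had 1 count in all 6 libraries together.

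In order of mean level the strands ran miR-130a-3p, miR-301a-3p, miR-130b-3p, miR-301b-3p, miR-130a-5p, miR-301a-5p, miR-130b-5p and miR-301b-5p. The lowest library of miR-130a-3p lay above the highest of miR-301a-3p, and the lowest of miR-301a-3p above the highest of miR-130b-3p. From miR-130b-3p downwards, each strand's range overlapped that of the next in the order, except that of miR-301b-5p.

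**Figure D1:**
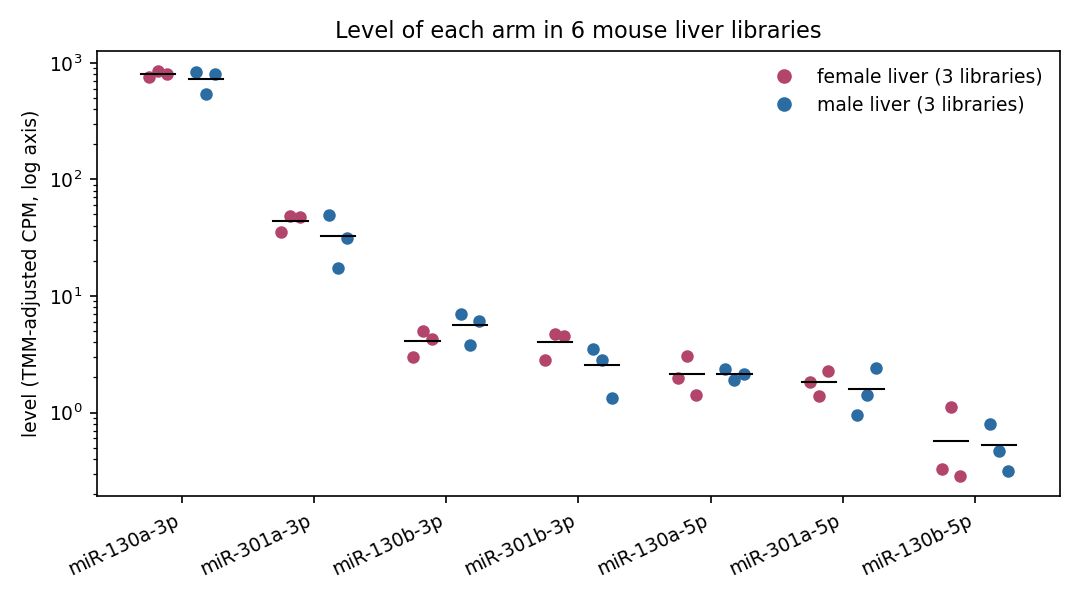
Level of each strand of the family in TMM-adjusted CPM on a log axis, by library, with females on the left and males on the right of each position; points are libraries and bars are the means of 3. miR-130a-3p lies between 535 and 851 CPM, and every other strand lies below 50 CPM; miR-301b-5p, with 1 count in all, is not drawn.

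The counts of the 4 members with 3p strands were summed to describe the pool of the family's 3p strands, whose seed was read here for the 3 printed above. The pool was 800, 909 and 853 CPM in females and 901, 559 and 834 CPM in males, or 0.0513 to 0.0937% of the counts of a library. In every library miR-130a-3p made up between 93.4 and 95.7% of it. The share of miR-301a-3p was 3.08 to 5.55% and that of miR-301b-3p 0.160 to 0.535%. That of miR-130b-3p was 0.372, 0.548 and 0.501% in females and 0.773, 0.676 and 0.731% in males. The sexes did not overlap in the share of miR-130b-3p, which rests on few counts, and overlapped in the shares of the other 3p members. This difference was not tested. Another 4 miRNAs of the table had the same bases 2 to 8, namely miR-6341, miR-130c, miR-721 and miR-6389. They had 8, 6, 1 and 1 counts over all 6 libraries, so 16 counts in sum, and added next to nothing to the pool.

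Within each hairpin the 3p strand was the commoner. For miR-130a, 99.7% of the counts were 3p (30566 of 3p and 85 of 5p over all libraries; 95% exact binomial interval 99.66 to 99.78%). For miR-301a the 3p share was 95.1% (1434 and 74 counts; 93.9 to 96.1%), and for miR-130b 91.6% (207 and 19 counts; 87.2 to 94.9%). The miR-301b hairpin had 105 counts of 3p and 1 of 5p (99.1%; 94.9 to 99.98%). These intervals, like all intervals on counts here, cover counting error only and leave out the spread between animals. They can be too narrow even for counting error, because several reads can be PCR copies of the same molecule. The intervals of miR-130a and miR-301a do not overlap. By library the 3p share ran from 99.6 to 99.8% for miR-130a and from 92.4 to 98.1% for miR-301a, so it was higher for miR-130a in every library.

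The 3p shares were compared between the sexes for the 3 hairpins with counts of both strands in every library. They averaged 99.7 ± 0.0891% in females and 99.7 ± 0.0440% in males for miR-130a, 88.5 ± 6.10% and 91.2 ± 3.33% for miR-130b, and 95.9 ± 1.15% and 94.4 ± 3.18% for miR-301a (SD, n = 3 each). Female and male libraries overlapped in all 3. The exact two-sided permutation test gave p = 0.5, 0.6 and 0.5, and 0.6 for each after Benjamini-Hochberg adjustment over the 3 hairpins, where 3 animals against 3 cannot give less than 0.1.

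No member passed the test between females and males. The test was the quasi-likelihood test of edgeR on the whole table, with adjustment over the 370 tested miRNAs and a threshold of 0.05. Of these, 25 passed (6.76%), 12 higher in females (3.24%) and 13 lower (3.51%). Without female replicate 2, female replicate 3 or male replicate 3 that count was 9, 10 and 12. The members with 3p strands, 4 of the 6, were tested, and miR-130b-5p and miR-301a-5p did not pass the filter on low counts. None of the 4 passed after adjustment, and 0 had an unadjusted p under 0.05, as 18.1% of all tested miRNAs had. DESeq2 and limma-voom called none of them either. For all 4 the female and male libraries overlapped, whereas 21.6% of the tested miRNAs had groups that did not overlap. The labels do not say which animals shared a litter. The edgeR p-values set the difference between the sexes against the spread within these 3 and 3 samples, estimated with information from all tested miRNAs.

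The difference was narrowest for miR-130a-3p, with a female mean of 802 ± 46.2 CPM and a male mean of 724 ± 165 CPM (SD, n = 3 each), a ratio of 1.11. Its log2 fold change, female over male, was 0.15 (SE 0.17; adjusted p = 0.717, edgeR). An interval of 1.96 SE on either side runs from -0.18 to 0.47 on the log2 scale. Female values were the higher in 6 of the 9 pairings of a female with a male library.

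The rarer 3p members had wider intervals. For miR-301a-3p, at 43.9 ± 7.35 and 32.6 ± 16.1 CPM, the log2 fold change was 0.42 (interval -0.21 to 1.04; adjusted p = 0.585, edgeR). For miR-130b-3p, with female and male means of 4.08 ± 1.02 and 5.61 ± 1.65 CPM, it was -0.53 (interval -1.18 to 0.11; adjusted p = 0.449, edgeR). For miR-301b-3p, at 4.02 ± 1.06 and 2.55 ± 1.10 CPM, it was 0.74 (interval -0.08 to 1.56; adjusted p = 0.388, edgeR). A 2-fold difference, 1 on the log2 scale, lies outside the interval of miR-130a-3p and inside those of the other 3 members in the direction of their estimates. The median of the 4 was 0.28, beside -0.01 over all tested miRNAs, and 3 of the 4 were positive, beside 48.1% of all.

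**Figure D2:**
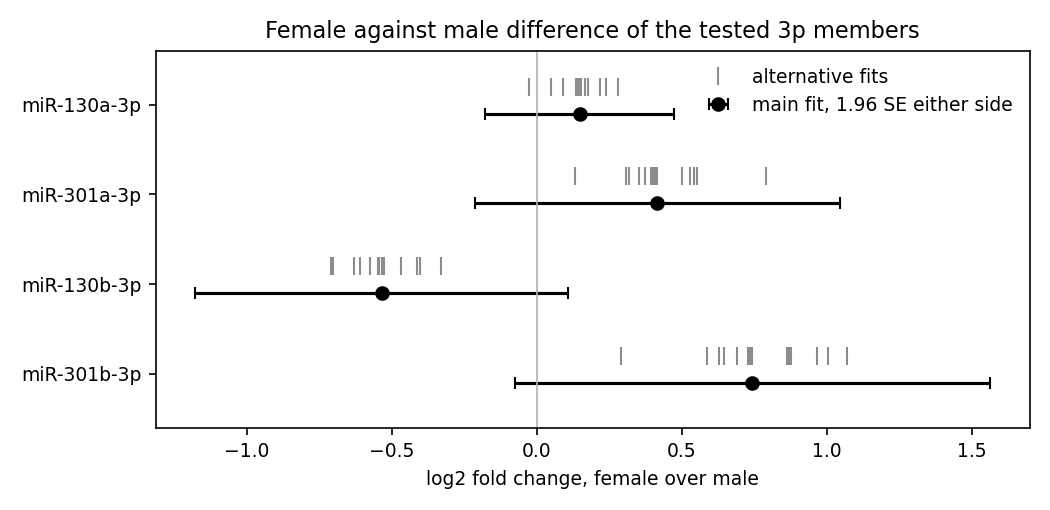
Log2 fold change, female over male, of the 4 tested members; black points with bars are the edgeR estimates with 1.96 SE on either side, and grey ticks are the estimates under the alternatives that could be fitted. All 4 bars cross 0, and the ticks of miR-301b-3p spread the most, from 0.29 to 1.07.

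The scaling shifted all members alike and turned none. With no normalization factor the median over all tested miRNAs moved to 0.13 (13 calls higher in females, 7 lower). Upper-quartile factors moved it to -0.10 (7 calls higher, 19 lower). The log2 fold change of miR-130a-3p was 0.28 and 0.05 under these scalings, that of miR-301a-3p 0.54 and 0.31, that of miR-130b-3p -0.40 and -0.63, and that of miR-301b-3p 0.88 and 0.65.

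Single libraries moved the estimates more than the scaling did. Without male replicate 2 the log2 fold change was -0.03 for miR-130a-3p and 0.13 for miR-301a-3p. Without male replicate 1 that of miR-301a-3p was 0.79 (adjusted p = 0.12, edgeR) and that of miR-301b-3p 1.07 (adjusted p = 0.161, edgeR). Without male replicate 3 that of miR-301b-3p was 0.29.

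The members under the filter were compared by their summed counts, scaled by the summed adjusted library totals. The female to male ratio was 0.958 for miR-301a-5p (24 and 50 counts; 95% exact interval 0.563 to 1.59) and 1.16 for miR-130b-5p (7 and 12 counts; 0.388 to 3.21). Male replicate 3 gave 38 of the 50 male counts of miR-301a-5p, and its mean over libraries was 1.83 CPM in females and 1.59 CPM in males. In the fit with no filter on low counts, the log2 fold change of miR-301a-5p was 0.06 (adjusted p = 0.978, edgeR) and that of miR-130b-5p 0.14 (adjusted p = 0.955, edgeR). The intervals on summed counts leave out the spread between animals. They are therefore no limits of detection, and the difference that could be detected at this depth was not estimated.

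The members varied in different ways from library to library. In male replicate 2 all 4 members with 3p strands lay below their mean of the 6 libraries. The distance was 0.50 log2 units for miR-130a-3p, 1.05 for miR-301a-3p, 0.28 for miR-130b-3p and 0.10 for miR-301b-3p. This library was the lowest for miR-130a-3p and miR-301a-3p only, and the other members had few counts there (16 for miR-130b-3p and 12 for miR-301b-3p). In male replicate 3 miR-130b-3p was 0.37 above its mean and miR-301b-3p 1.04 below. Female replicate 1 was the lowest library for miR-130b-3p, at 0.60 below its mean, while miR-130a-3p was at 0.01 there.

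**Figure D3:**
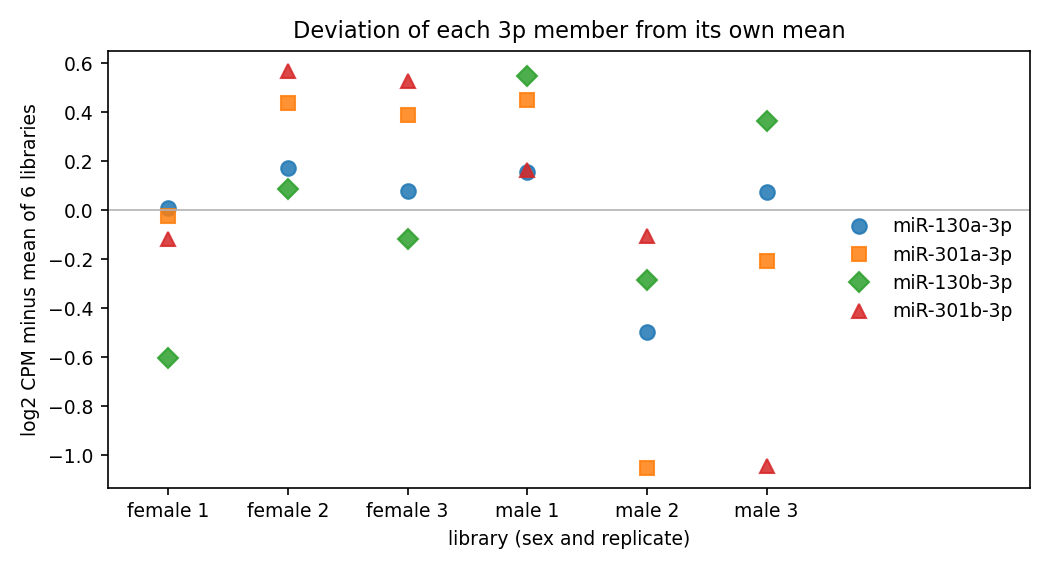
Log2 CPM (prior count 2) of each 3p member minus its own mean over the 6 libraries, by library; each symbol is a member. The 4 symbols all lie below 0 in male replicate 2, and in male replicate 3 miR-130b-3p (0.37) and miR-301b-3p (-1.04) lie farthest apart.

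Across the 6 libraries, Pearson's r of log2 CPM was 0.94 between miR-130a-3p and miR-301a-3p, which come from different chromosomes, and -0.16 between the neighbours miR-130b-3p and miR-301b-3p. These are descriptions over 6 points that share their library, with few counts behind the last value. With male replicate 2 left out, the lowest library for both, the first value was 0.71. The tested miRNAs outside the family most like miR-130a-3p by this measure were miR-22-5p (r = 0.98), miR-30c-5p (0.94) and miR-674-5p (0.93). Most like miR-301a-3p were miR-335-5p (0.99), miR-15a-5p (0.98) and miR-322-5p (0.97). For miR-130b-3p they were miR-365-3p (0.97), miR-200b-3p (0.93) and miR-450b-5p (0.92), and for miR-301b-3p they were miR-3065-5p (0.98), miR-107-3p (0.96) and miR-299a-3p (0.87). With 6 libraries and 370 miRNAs, high values arise easily.

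The proportion of the neighbours on chromosome 16 was compared between the sexes after the values were seen, and did not pass a test. Of the counts of miR-301b-3p and miR-130b-3p together, miR-301b-3p made up 48.6, 48.6 and 51.6% in females and 33.3, 42.9 and 17.9% in males. The groups did not overlap: the means were 49.6 ± 1.76% for females and 31.4 ± 12.6% for males (SD, n = 3 each). With p = 0.1 in the exact two-sided permutation test, which is as low as this design can reach, the difference cannot pass a threshold of 0.05. The share is taken within a library, so the scaling between libraries does not enter it.

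The counts behind the share were small. They were 17 of 35, 17 of 35 and 16 of 31 in females and 22 of 66, 12 of 28 and 21 of 117 in males. The exact 95% interval of male replicate 3, 11.5 to 26.1%, lay below that of each female library, of which the lowest ran from 31.4 to 66.0%; those of male replicates 1 and 2, 22.2 to 46.0% and 24.5 to 62.8%, overlapped them. Without male replicate 3 the difference between the means fell from 18.2 to 11.5 percentage points. Of 129 pairs of tested miRNAs from different hairpins within 1000 bases on a strand, 10.9% had groups that did not overlap in the same kind of share. The pair described here is among those, and many of the pairs have a hairpin in common, so they are not independent. The deposited table does not say how reads that fit several miRNAs were counted, and miR-130b-3p differs from the far more abundant miR-130a-3p at 2 positions; its part in the share was not tested.

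**Figure D4:**
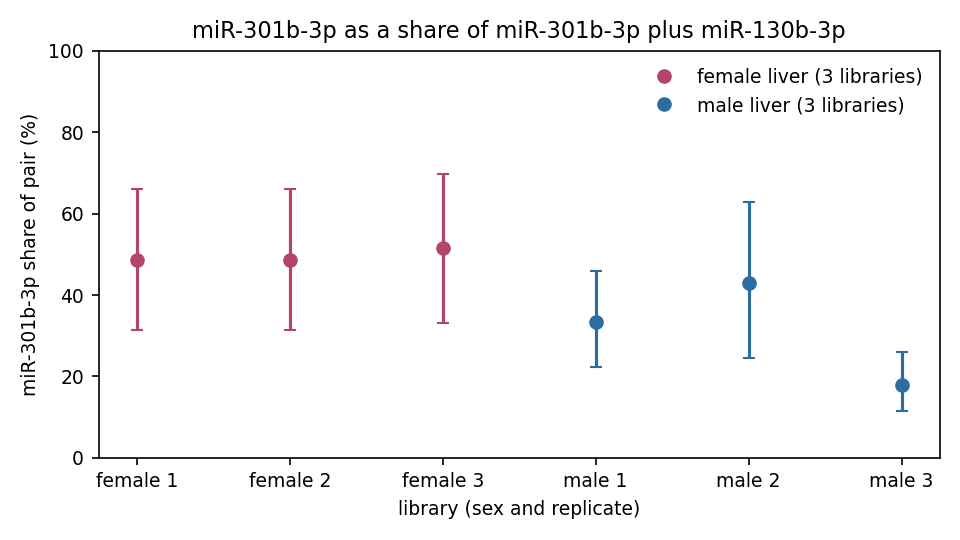
miR-301b-3p as a percentage of the summed counts of miR-301b-3p and miR-130b-3p in each library; bars are exact 95% binomial intervals, which cover counting error only. The 3 females sit between 48.6 and 51.6% and the 3 males between 17.9 and 42.9%, with male replicate 3 the lowest.

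Other miRNAs known to act on PPAR gamma, or on ABCA1, the transporter that loads cholesterol onto HDL, were compared in the same fit, by a list written with earlier results of these data known. Of 10 listed outside the family, all 10 were tested and 1 was higher in females, beside 3.24% of all tested miRNAs, with a median of 0.16 beside -0.01. That miRNA was miR-34a-5p, at 332 ± 18.1 against 96.7 ± 25.5 CPM (log2 fold change 1.78, SE 0.20; adjusted p = 0.00016, edgeR). The 3 most abundant on this list were miR-148a-3p, at 25009 ± 1290 CPM in females and 28311 ± 5801 in males, miR-27b-3p at 6611 ± 377 and 5936 ± 180 CPM, and miR-93-5p at 2655 ± 282 and 2376 ± 222 CPM (SD, n = 3 each). Each of these stood above miR-130a-3p in mean level. Among miRNAs that did not pass, miR-33-5p, which lies within a gene of cholesterol synthesis control and acts on ABCA1, stood at 60.5 ± 15.0 and 44.0 ± 14.0 CPM (adjusted p = 0.411, edgeR).

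Marker miRNAs of cell types were summed beside these values, since in bulk liver fewer cells of a type and less RNA per cell cannot be told apart. The 5 hepatocyte markers summed to 395702 to 398814 CPM in females and 421032 to 465986 in males, highest in male replicate 2. Most of that sum was miR-122-5p, with means of 315746 CPM in females and 363970 in males. The markers did not move together. The means of miR-122-5p and miR-148a-3p were higher in males, and those of miR-192-5p, miR-194-5p and miR-802-5p in females. Of these only miR-802-5p passed the threshold (503 ± 95.8 and 103 ± 30.9 CPM, adjusted p = 0.000106, edgeR). The 6 leukocyte markers summed to 6559 to 6745 CPM in females and 4895 to 6449 in males, lowest in male replicate 2. The 5 stromal and stellate markers summed to 8916 to 11436 CPM in females and 12108 to 12796 in males, and the 2 endothelial markers to 67757 to 71793 and 68743 to 76011 CPM. All markers of these 4 lists had counts in every library. The part of cell composition in the low values of male replicate 2, where miR-130a-3p and miR-301a-3p were lowest, was not tested. Erythroid markers (4) summed to 223 to 378 CPM in females and 235 to 275 in males, and biliary epithelial markers (5) to 709 to 900 and 861 to 1020 CPM. Muscle and pancreas markers (3 each) summed to under 35 CPM in every library.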

How the data were processed

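Values in the deposited table are estimated counts for each mature miRNA, not normalised, and 98.9% of them were exactly whole, with no tolerance. Per the labels' protocols, a Qiagen kit for miRNA libraries was used; Partek, Bowtie and mm10 are named in the submitters' processing notes; not given in the sources used here are trimming, molecular identifiers and the counting of reads that match several miRNAs. Of 2045 rows, 138 exact repeats were dropped. Counts were rounded and fitted in edgeR 4.0.16 (R 4.3.3) with TMM, filterByExpr by sex (minimum count 10, minimum total 15), the robust option and no covariate. Groups follow the labelled sex; replicate numbers follow accession order. Alternatives used RLE, upper-quartile or no factors, other filters, DESeq2 1.42.0, limma-voom 3.58.1, a non-robust fit, thinning to equal depth and leaving out each library. The fit was tested on simulated data. RefSeq positions (GRCm38.p6) matched the table's with the table's stop taken as 1 base past the end. One count stood for 0.0608 to 0.304 CPM before TMM. Named miRNAs were the members, the other strands of their hairpins, rows with the seed of miR-130a-3p, the 3 most correlated miRNAs per tested 3p member, and the called and 3 most abundant miRNAs of a list; miR-33-5p was named after its values were seen. Results for another target gene are not reported here. Members and lists were chosen with earlier results of these data known.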

Additional observations from a re-analysis of the deposited data

How the results depend on the processing

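No member passed the threshold in any of the 15 alternative fits. Of 58 member values in these fits, 57 kept direction and side of the threshold; miR-130a-3p changed sign without male replicate 2, and its log2 fold change ran from -0.025 to 0.24 over the fits without 1 library. The count of 25 miRNAs over the whole table was 13 with a minimum count of 50, where 246 miRNAs were tested, 9 after thinning to equal depth, where 337 were, and between 9 and 32 with 1 library removed; elsewhere it stayed within 1.5 times. With the minimum count of 50, miR-130b-3p and miR-301b-3p were not tested. Adjusted p over the alternatives ranged from 0.419 to 0.949 for miR-130a-3p, 0.12 to 0.837 for miR-301a-3p, 0.219 to 0.753 for miR-130b-3p and 0.161 to 0.796 for miR-301b-3p. When a library was left out, the female minus male difference in 3p share ran from -0.00714 to 0.0819 percentage points for miR-130a, from -5.34 to 0.63 for miR-130b and from 0.464 to 3.32 for miR-301a, and that of the miR-301b-3p share, added after seeing the data, from 11.5 to 23.9. No paired analysis was possible because the labels give no replicate numbers or litters that pair animals. Depth limits the strands under 5 CPM, with as few as 1 to 5 counts in a library for miR-130b-5p.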
